A study of Mus musculus and Rattus norvegicus with 37 samples.

Results

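A set of 10 genes of collagen modification and processing were examined in the liver of mice and rats, with the question of whether they follow the rise in collagen mRNA that inhibition of the microRNA miR-29 brings about. The 10 genes were taken by name from tables that hold 47929 singly named genes in mouse and 28026 in rat: the prolyl 4-hydroxylase subunits P4ha1, P4ha2 and P4ha3, the lysyl hydroxylases Plod1, Plod2 and Plod3, the prolyl 3-hydroxylase Leprel1, and the propeptide processing genes Bmp1, Pcolce and Adamts2. Of these, 9 were listed under the given name in every table, and Leprel1 was listed under its current symbol, P3h2, which is used from here on. In mice 0 of 9 measurable enzymes passed the test in either comparison of LNA29 with saline, where 4.35% and 1.87% of all tested genes passed, so that a count of 0 is near the background. The fibrillar collagens as a mean were higher after miR-29 inhibition in both. In fatty rats, Adamts2 and Pcolce were higher than in lean rats without overlap, as were 7.8% of all tested genes. Both reached the minimum mean for testing only through the fatty rats, and some lean libraries held too few reads to measure them. Their values are therefore a description, and whether they passed the test depended on how the shallow libraries were treated.

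RNA sequencing of whole liver was available for 21 mice and 16 rats. LNA29 is a mixture of locked nucleic acid oligonucleotides that bind miR-29a-3p and miR-29b/c-3p. Female C57BL/6J mice received 1 subcutaneous injection of LNA29 (20 mg/kg of each oligonucleotide) or of saline, without a scrambled oligonucleotide as control, and RNA sequencing was done on livers taken at day 7 in the fed state. The WT/Floxed group pools wild type mice of 9 to 11 weeks, which make up 4 of the 8 LNA29 and 3 of the 5 saline libraries, with mice of 15 to 20 weeks that carry a floxed Sirt1 gene. The L-Sirt1 KO mice (4 LNA29, 4 saline) were littermates of the floxed mice in which Sirt1 is deleted in the liver alone. The rats were male: chow-fed fa/fa Zucker Fatty rats (ZFR), which lack a working leptin receptor, and Zucker Lean rats (ZLR) at 5.5 months (4 each), and ZFR at 3 months given BT2, an inhibitor of branched-chain ketoacid dehydrogenase kinase, at 20 mg/kg each day for 1 week or the vehicle dimethylsulfoxide (4 each). Animals are separate samples in each group, and neither treatment is limited to the liver.

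Values are the DESeq2-normalized counts deposited for each gene, a scale on which libraries of 1 table, and only those, can be compared. The mouse libraries held an estimated 42.6 to 78.0 M reads (M, mega), and the rat libraries from 0.188 to 58.5 M. The lean libraries ZLR 3 and ZLR 4 held 0.188 and 0.189 M reads, where 1 read is worth 10.5 and 10.4 normalized counts, so these 2 libraries carry little information on genes of this level. The total Sirt1 count ranged from 535 to 617 in the 8 libraries labelled L-Sirt1 KO and from 493 to 699 in the 13 WT/Floxed libraries. The genotypes were normalized separately, so these ranges cannot be set against each other and do not test the deletion. Genotypes are taken from the labels. The paper compared Sirt1 between the genotypes by RT-qPCR, which these counts do not replace.

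Collagen chains are modified in the endoplasmic reticulum before they fold. The prolyl 4-hydroxylases hydroxylate the prolines that make the triple helix stable at body temperature, the lysyl hydroxylases hydroxylate the lysines that later carry sugars and cross-links, and the prolyl 3-hydroxylases modify a small number of prolines. After secretion, BMP1 removes the C-terminal propeptide, a step that PCOLCE enhances, and ADAMTS2 removes the N-terminal propeptide, which lets the molecules assemble into fibrils. In liver, stellate cells are the main source of fibrillar collagen. The miR-29 family is known to bind collagen mRNAs and lower their level.

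The sequences of the mature mouse miR-29 family members (RefSeq, GRCm38.p6) are shown first because their shared seed, bases 2 to 8 in capitals, defines the sites that were searched.
mmu-miR-29a-3p, from chr6:31062673-31062694, minus strand: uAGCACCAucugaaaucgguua
mmu-miR-29b-3p, 1 of 2 gene copies at chr1:195037091-195037113, plus strand: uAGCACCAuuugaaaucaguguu
mmu-miR-29c-3p, from chr1:195037600-195037621, plus strand: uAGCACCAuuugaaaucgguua

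The complement of this seed, TGGTGCT, was searched on the transcript strand of the annotated 3′ untranslated regions (GENCODE M21, GRCm38). The 8-base form TGGTGCTA, which contains the 7-base form, adds the base that pairs opposite miRNA position 1 by convention. All 10 enzymes have an annotated 3′ untranslated region, and 2 of them, Plod1 with 1 match and Adamts2 with 4, held the 7-base match, against 16.3% of 13477 tested mouse genes that have such a region. None of the 10 enzymes held the 8-base match, which 3.51% of tested genes held and which 4 of 5 fibrillar collagens (Col1a1, Col3a1, Col5a1, Col5a2, but not Col1a2) held. Every match is given with its 30-base surroundings in the last exon, site in capitals, so that the enzymes can be set against 2 collagens and P3h1, a prolyl 3-hydroxylase outside the 10.
Plod1, chr4:147910516-147910545, minus strand: ggggctgcccaTGGTGCTcccactaatctc
Adamts2, base 938 of the region, chr11:50804956-50804985, plus strand: gtttcaaaaccTGGTGCTcaaaatgtgtgc
Adamts2, base 2422, chr11:50806440-50806469, plus strand: ccagataaagaTGGTGCTtaaccttcctcc
Adamts2, base 2901, chr11:50806919-50806948, plus strand: tccagagttagTGGTGCTcatacacgtgtg
Adamts2, base 3333, chr11:50807351-50807380, plus strand: aagtatataaaTGGTGCTtagtaccaatgt
Col1a1, chr11:94952527-94952556, plus strand: gaaggaatttcTGGTGCTAtagaagctgag
Col3a1, chr1:45348971-45349000, plus strand: aaatgtctcaaTGGTGCTAtaataaataaa
P3h1, chr4:119248182-119248211, plus strand: agccttctgcaTGGTGCTActgttcttgga
A match of letters is a description and no evidence of binding. The Adamts2 region is the longest of the 10 (3544 bases) and that of Pcolce the shortest (60 bases).

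**Figure D1:**
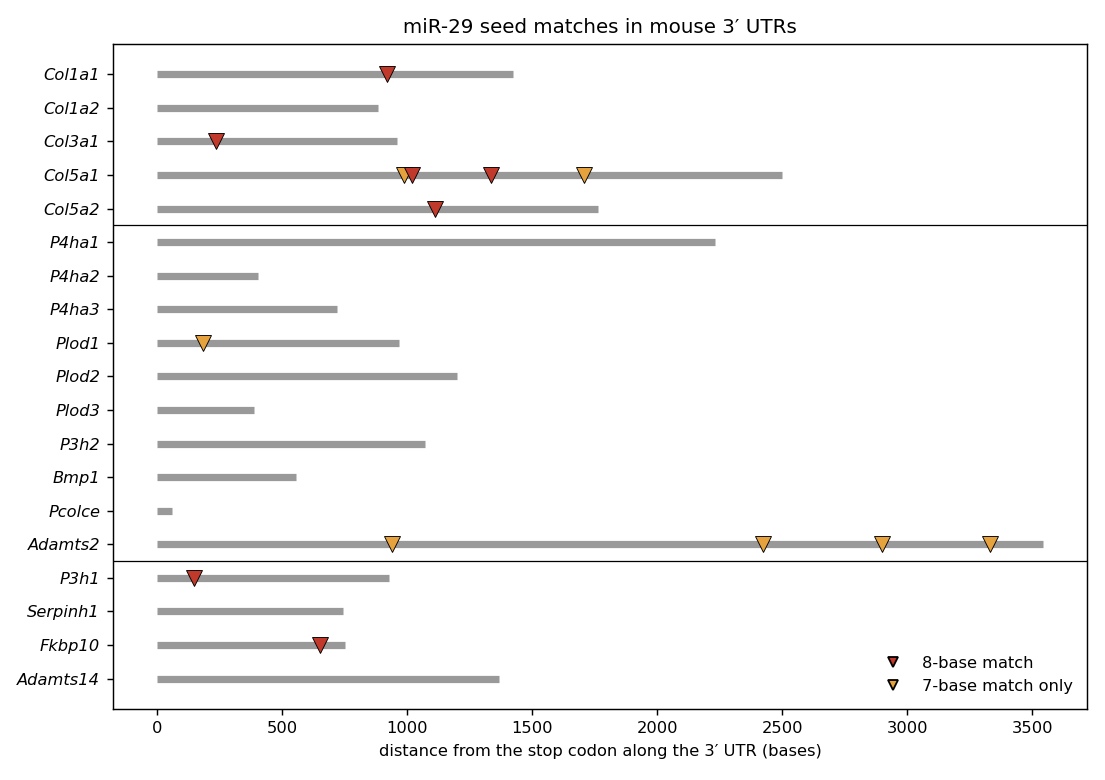
Positions of matches to the miR-29 seed along the longest annotated mouse 3′ untranslated region of each gene (x axis, bases from the stop codon; grey bar, the region; upper block, fibrillar collagens; middle block, the 10 enzymes; lower block, other collagen biosynthesis genes). Among the enzymes, Plod1 shows 1 match and Adamts2 4, all of the 7-base kind, and the other 8 bars carry none.

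In the untreated state the enzymes differed in level by orders of magnitude. Per kilobase of annotated exon, the saline WT/Floxed livers (n = 5) gave 702 ± 50.2 (SD) normalized counts for Bmp1, the highest of the 10. Plod1 (372 ± 30.3) and Plod3 (319 ± 29.3) came next and their ranges overlapped each other, so their order is not separated by the spread between animals. P4ha1 followed with 198 ± 30.1 and Pcolce with 118 ± 7.81, each apart from its neighbours. P4ha2 (48.2 ± 24.4), Adamts2 (39.4 ± 17.3) and P3h2 (20.5 ± 6.31) formed a run in which each range overlapped the next, and Plod2 stood below them at 8.86 ± 1.89. P4ha3 was close to the limit of detection at 0.838 ± 0.556 per kilobase, with 0 to 4.98 normalized counts in the 13 WT/Floxed libraries and 0.696 to 4.88 in the 8 labelled L-Sirt1 KO. It fell under the minimum mean of 10 normalized counts in all 4 tables and was not tested. Saline livers labelled L-Sirt1 KO gave the same order with 2 exchanges between neighbours, Plod3 with Plod1 and Adamts2 with P4ha2, and in both pairs the ranges overlapped.

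The enzymes also differed in how much they varied between animals of 1 group. In the WT/Floxed table the residual SD of Plod1 was 0.08 on the log2 scale, at the 1.52 percentile of all tested genes, and that of Bmp1 was 0.12, at the 8.73 percentile. Adamts2 lay at the other end with 0.99, the 97.3 percentile, and P4ha2 with 0.64, the 90.6 percentile. The same 2 genes were the most variable in the L-Sirt1 KO table, with residual SDs of 0.77 and 0.74 at the 94.8 and 94.1 percentiles. A change of a given size was thus far easier to see for Plod1 or Bmp1 than for Adamts2 or P4ha2.

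The first comparison asked whether LNA29 raised the enzymes along with the collagens in WT/Floxed mice. The criteria were a limma p under 0.05, a Benjamini-Hochberg adjusted p under 0.2, a mean over 50 and a fold change over 1.2, which 688 of 15811 tested genes met (4.35%). Of the 9 enzymes tested, 0 met them. An unadjusted limma p under 0.05 was reached by 2 enzymes, Plod1 and Pcolce, and by 2105 of the 15811 tested genes. The estimate was above 0 for 8 of the 9, with a median log2 fold change of 0.13 against 0.00 over all tested genes. On the same scale the mean log2 level of the fibrillar collagens Col1a1, Col1a2, Col3a1, Col5a1 and Col5a2 was higher by 0.82 after LNA29 (two-sided exact permutation p = 0.00233).

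Among the prolyl 4-hydroxylases, P4ha1, the main catalytic subunit in most tissues, ranged from 687 to 1088 normalized counts with a median of 782 in the 8 LNA29 livers. In saline livers it was 904, 847, 598, 866 and 865. The groups overlapped almost completely, and the log2 fold change was 0.02 (95% interval -0.24 to 0.27, limma adjusted p = 0.969). P4ha2, the second subunit, ranged from 199 to 628 with a median of 475 after LNA29. Its saline values were 328, 154, 165, 328 and 527. Both groups were spread more than 3-fold and overlapped, with 6 of 8 LNA29 livers above the saline median. The log2 fold change of P4ha2 was 0.66 (-0.03 to 1.35, limma adjusted p = 0.401), an interval that includes both no change and the size of the collagen rise.

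Of the lysyl hydroxylases, Plod1 was the tightest. Its saline values were 2497, 2282, 2363, 2746 and 2706, and its LNA29 values ran from 2641 to 2869 with a median of 2715. All 8 LNA29 livers lay above the saline median, but 2 of the saline livers lay inside the LNA29 range. The log2 fold change was 0.13 (0.00 to 0.26, exact permutation p = 0.014, limma adjusted p = 0.363), so a rise of Plod1 above 0.26 lay outside the interval. Plod3, which also transfers sugars to hydroxylysine, gave 1389, 1460, 1373, 1324 and 1661 in saline and 1292 to 1718 (median 1493) after LNA29. The groups overlapped and the log2 fold change was 0.05 (-0.13 to 0.22, limma adjusted p = 0.867). Plod2, which hydroxylates the telopeptide lysines of stable cross-links, was low, with 55.4, 46.4, 35.2, 60.3 and 41.5 in saline and 43.1 to 94.9 (median 57.4) after LNA29. Its log2 fold change of 0.35 had a wide interval (-0.10 to 0.81, limma adjusted p = 0.523). P3h2, the prolyl 3-hydroxylase, was the single enzyme with an estimate below 0, at -0.18 (-0.62 to 0.25, limma adjusted p = 0.771), with 114, 53.8, 73.1, 60.9 and 78.4 in saline and 43.6 to 82.5 (median 67.8) after LNA29. Reads of P3h2 may include those of Gm4524, an antisense gene that shares 1055 exonic bases with it.

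Of the propeptide processing genes, Pcolce had the lowest p of the 9 tested enzymes. Its saline values were 418, 453, 423, 490.3 and 463, and its LNA29 values ran from 462 to 604 with a median of 551. All 8 LNA29 livers exceeded the saline median, and the groups overlapped between 462 and 490.3. The log2 fold change was 0.25 (0.06 to 0.43, exact permutation p = 0.0117, limma adjusted p = 0.224), a fold of 1.19, which missed both the fold of 1.2 and the adjusted p of 0.2. Without LNA29 replicate 2, the lowest of the 8, it met the criteria (log2 fold change 0.27, limma adjusted p = 0.174). Pcolce shares 112 exonic bases with Fbxo24 and with Gm36266. Bmp1 gave 5900.3, 5759, 6750.3, 6643 and 6084 in saline and 5733 to 7384 (median 6291) after LNA29, with a log2 fold change of 0.03 (-0.13 to 0.18, limma adjusted p = 0.917). Adamts2 was scattered in both groups, with 136, 385, 503, 289 and 526 in saline and 110.1 to 1101 (median 578) after LNA29, a 10-fold range among treated animals. Its log2 fold change of 0.52 (-0.53 to 1.57, limma adjusted p = 0.721) could not be told from 0 or from the collagen rise. Within wild type mice alone and within floxed mice alone, 0 of 9 enzymes met the criteria, which 0.555% and 5.35% of all genes met there.

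**Figure D2:**
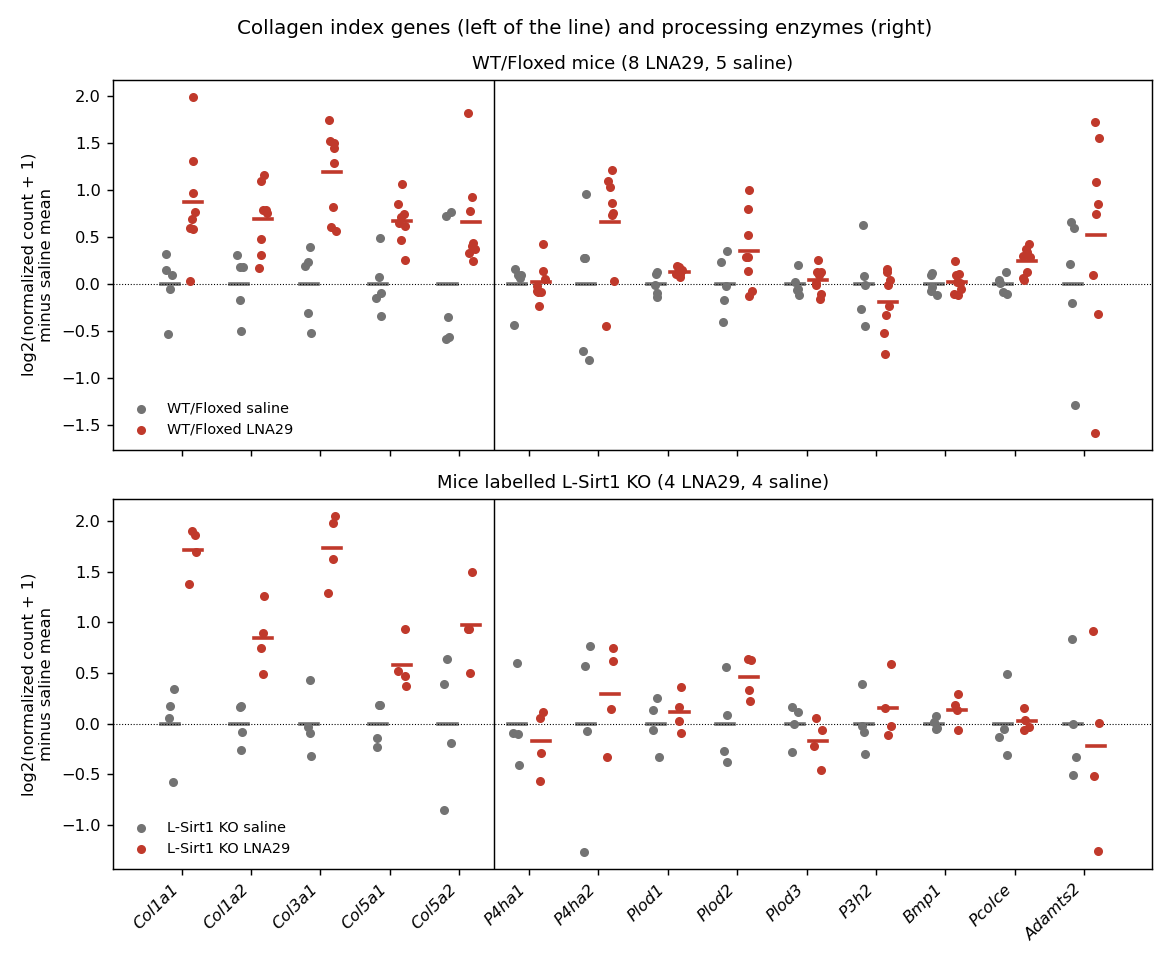
Level in each mouse liver as log2(normalized count + 1) minus the mean of the saline group of the same table (y axis), for the 5 collagen index genes and the 9 tested enzymes (x axis; points, livers; bars, group means; grey, saline; red, LNA29). The LNA29 points of Col3a1 lie above all saline points in both panels, whereas every enzyme shows overlapping groups, widest for Adamts2 and P4ha2 and narrowest for Plod1 in the upper panel.

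The same comparison in mice labelled L-Sirt1 KO asked whether the response depends on hepatic Sirt1. Here 297 of 15885 tested genes met the criteria (1.87%), and again 0 of 9 enzymes did. An unadjusted limma p under 0.05 was reached by 0 enzymes and by 1779 of the 15885 genes. The collagen mean rose by 1.17 on the log2 scale (exact permutation p = 0.0286, the smallest that 4 against 4 allows). The estimate was above 0 for 6 of 9 enzymes, with a median log2 fold change of 0.12.

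P4ha1 gave 1409, 865, 700.2 and 876 normalized counts in saline and 1010.2, 627, 967 and 762 after LNA29, a log2 fold change of -0.17 (-0.67 to 0.33, limma adjusted p = 0.811). P4ha2 gave 450.3, 514, 125 and 288 in saline and 241, 335, 507 and 466 after LNA29 (0.30, interval -0.64 to 1.23). The groups overlapped for both subunits, and the P4ha2 estimate turned to -0.13 without saline replicate 3, its lowest liver.

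Plod2 came closest to a separation, with 62.3, 32.2, 34.8 and 44.6 in saline and 49.4, 65.5, 53.3 and 66.0 after LNA29. All 4 LNA29 livers exceeded the saline median but 1 saline liver lay among them, and the log2 fold change was 0.46 (-0.08 to 1.00, limma adjusted p = 0.533). Plod1 (0.12, interval -0.21 to 0.44) and Plod3 (-0.17, interval -0.48 to 0.14) did not differ beyond their spread, and P3h2 gave 0.15 (-0.33 to 0.63).

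Bmp1 gave 5412, 5889, 5449 and 5675 in saline and 5360.1, 6850, 6372 and 6171 after LNA29, with 3 of 4 treated livers above all saline livers. Its log2 fold change of 0.14 (-0.06 to 0.34, limma adjusted p = 0.613) was within the spread. Pcolce, the enzyme of lowest p in WT/Floxed mice, gave 0.03 here (-0.34 to 0.39, limma adjusted p = 0.967), with 808, 462, 526 and 553 in saline and 587, 641, 551 and 562 after LNA29. Adamts2 gave -0.21 (-1.19 to 0.76, limma adjusted p = 0.886). The difference between the 2 genotypes was tested directly with an interaction term over 15601 genes, of which 7 passed an adjusted p under 0.2 (0.0449%), and none of the 9 enzymes was among them (limma adjusted p from 0.709 to 0.989). The Pcolce responses, for example, differed by 0.22 (WT/Floxed minus L-Sirt1 KO, interval -0.14 to 0.57).

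To ask whether an enzyme moved with the collagens, and not only whether it moved, the mean log2 level of the 5 fibrillar collagens in a library was subtracted from the enzyme's log2 level in that library and the difference was tested. In WT/Floxed mice 6 of 9 enzymes fell behind the collagen mean at a limma adjusted p under 0.05: P4ha1, Plod1, Plod3, P3h2, Bmp1 and Pcolce. The size was largest for P3h2 (-1.003, interval -1.60 to -0.41) and smallest for Pcolce (-0.57, interval -1.05 to -0.09). P4ha2 (-0.16), Plod2 (-0.46) and Adamts2 (-0.30) did not pass this test, and their intervals were wide. With sample quality weights Plod2 also fell behind (-0.69, limma adjusted p = 0.0121), which made 7 of 9. In mice labelled L-Sirt1 KO all 9 tested enzymes fell behind, from -0.71 for Plod2 (-1.38 to -0.05) to -1.38 for Adamts2 (-2.05 to -0.72). These counts must be read against all genes, since 82.1% of tested genes in WT/Floxed mice and 91.2% in L-Sirt1 KO mice fell behind the collagen mean by the same test. The share of enzymes that fell behind was thus not above that of all genes in WT/Floxed mice. The call for Pcolce in WT/Floxed mice was lost when any of LNA29 replicate 2, LNA29 replicate 7, saline replicate 2 or saline replicate 5 was left out (limma adjusted p 0.0542 to 0.0936), and that for Plod2 in L-Sirt1 KO mice was lost in 6 of 8 such fits (up to 0.12, without saline replicate 1). The call for P4ha2 in L-Sirt1 KO mice was lost without saline replicate 2 (-0.49, limma adjusted p = 0.122) and with sample quality weights (-0.52, 0.0924), where 7 of 9 enzymes passed.

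The collagens themselves set the scale. In WT/Floxed mice Col3a1, a fibrillar collagen of soft tissue, rose by 1.19 (adjusted p = 0.0162), Col1a1 by 0.87 (0.123), Col1a2 by 0.69 (0.0752) and Col5a1 by 0.67 (0.0331), all by limma on the log2 scale. Col5a2 was 0.66 higher and did not pass (0.357). The same 4 passed in L-Sirt1 KO mice, with Col3a1 at 1.74 and Col1a1 at 1.71. With single libraries left out, Col3a1 kept its call in every fit of both genotypes, Col1a1 in 10 of 13 in WT/Floxed and 8 of 8 in L-Sirt1 KO mice, Col1a2 in 13 of 13 and 6 of 8, and Col5a1 in 13 of 13 and 1 of 8. With flow cell as covariate Col1a2 and Col5a1 lost their calls in L-Sirt1 KO mice (limma adjusted p = 0.234 and 0.317). Of 15 collagen genes examined, 8 rose in each genotype. The upper limit of the 95% interval for P4ha1, Plod1, Plod3, P3h2 and Bmp1 in WT/Floxed mice was at most 0.27, below the estimate for each of these collagens.

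Some other genes of collagen biosynthesis passed the test, on a list chosen with earlier results of these data known. Of 17 tested genes in this wider list of chaperones, other hydroxylases and propeptidases, 4 rose in WT/Floxed mice and 0 fell. Of all tested genes 4.35% passed there. P3h1, the prolyl 3-hydroxylase of type I collagen, rose by 0.82 (limma adjusted p = 0.00231) with groups that did not overlap, and by 0.74 (0.146) in L-Sirt1 KO mice, where the call was kept in 3 of 8 fits with 1 library left out (adjusted p up to 0.346, without LNA29 replicate 4) and lost with flow cell as covariate (0.234). Serpinh1, the collagen chaperone HSP47, rose by 0.52 (0.0464), Fkbp10, a collagen prolyl isomerase, by 0.79 (0.150), and Adamts14, a second procollagen N-propeptidase, by 0.92 (0.119). Serpinh1 gave 0.19 within floxed mice alone (limma adjusted p = 0.579), and the calls of Fkbp10 and Adamts14 were lost when any of several single libraries was left out. In L-Sirt1 KO mice these 3 had log2 fold changes of 0.52, 0.61 and 0.10 and did not pass. P3h1 and Fkbp10 held the 8-base match to the miR-29 seed, and Serpinh1 and Adamts14 held no match. In WT/Floxed mice P3h1 thus passed where its relative P3h2 did not, and Adamts14 passed where Adamts2 did not, and the difference within either pair was not tested.

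**Figure D3:**
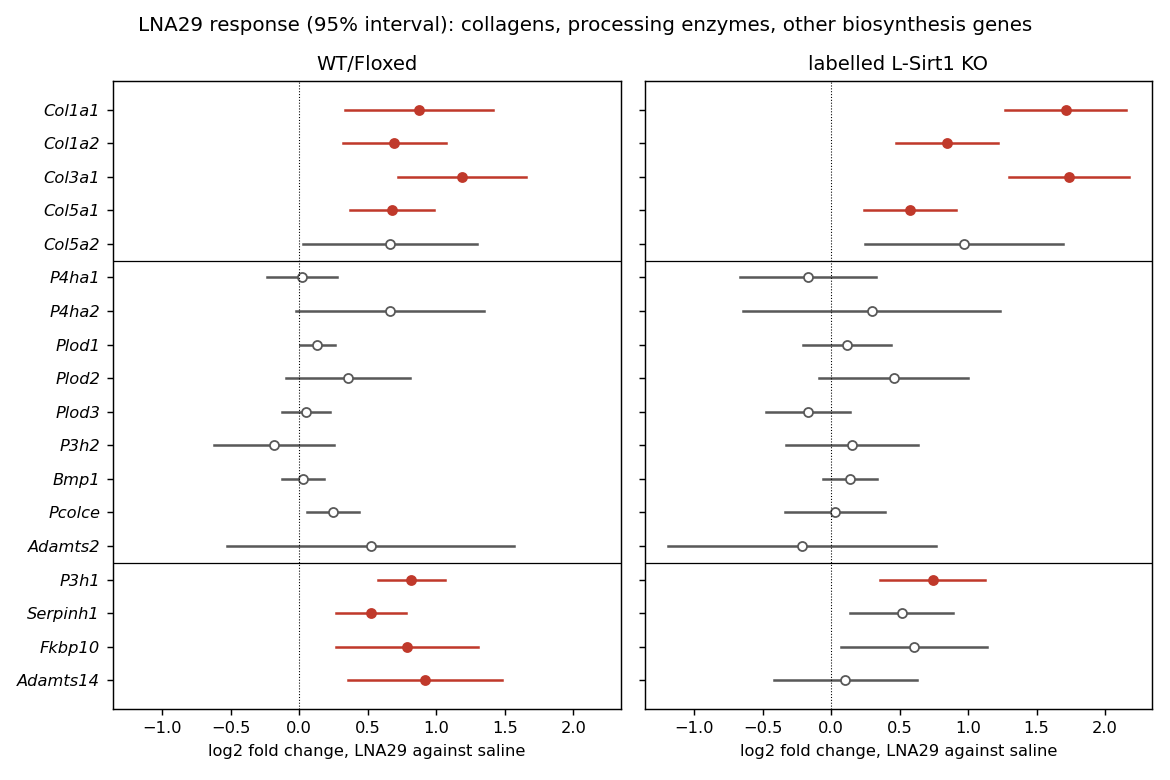
Log2 fold change of LNA29 against saline with its 95% interval (x axis) for the fibrillar collagens (top), the 9 tested enzymes (middle) and 4 other collagen biosynthesis genes (bottom), in WT/Floxed mice (left) and mice labelled L-Sirt1 KO (right). Filled red points met the 4 criteria; the middle block holds none, and its narrowest intervals, those of Plod1, Plod3 and Bmp1, end left of the estimates for the collagens.

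Markers of the cells that make collagen were examined in the same fits. Of 11 stellate cell markers, 0 met the criteria in either genotype, with median log2 fold changes of 0.07 and 0.11 and no marker at 0. Their summed level was 21514 to 25573 normalized counts in LNA29 and 19821 to 25355 in saline WT/Floxed livers. Of 6 markers of activated myofibroblasts, 4 were tested and 0 passed. Of 7 endothelial markers only Lyve1 passed, with a fall in both genotypes (-0.51 and -1.17), while the list medians were -0.14 and -0.05. Of 8 macrophage markers Clec4f and Vsig4 fell in L-Sirt1 KO mice (-0.29 and -0.54), where the list median was -0.34. In WT/Floxed mice 0 passed, with a list median of -0.43, and in each genotype 1 of the 8 had an estimate above 0. Among 8 hepatocyte markers only Apoa1 rose in WT/Floxed mice (0.51) and none changed in L-Sirt1 KO mice. In whole liver, fewer cells of a type and less RNA per cell cannot be told apart. Of 14 genes of the hypoxia response, a program that includes P4ha1, P4ha2 and Plod2 among its known targets, Ndrg1 rose (1.05) and Ddit4 fell (-0.56) in WT/Floxed mice, and Slc2a1 rose (0.58) while Ankrd37 (-1.27) and Bnip3 (-0.62) fell in L-Sirt1 KO mice. The part of these shifts in the enzyme values was not tested.

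In the rats, the question was whether the enzymes differ between fatty and lean livers and whether BT2 alters them. Replicates 1 and 2 of each group were sequenced on 1 flow cell and replicates 3 and 4 on another, per the labels. At a limma adjusted p under 0.05, 367 of 8633 tested genes differed between ZFR and ZLR (4.25%), and 0 of the 7 tested enzymes did. An unadjusted p under 0.05 was reached by 2 of the 7 enzymes and by 1429 of the 8633 genes. P4ha3, Plod2 and P3h2 fell under the minimum mean. Adamts2 and Pcolce were higher in ZFR without overlap between the groups, as were 7.8% of all tested genes. Both reached the minimum mean of 10 only through ZFR, where they are high: the mean of Adamts2 was 5.46 in ZLR and 26.1 in ZFR, and that of Pcolce 5.71 and 20.4. A gene that enters in this way has to differ, so their values and tests are given as a description.

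Adamts2, the N-propeptidase, gave 4.45, 4.61, 12.8 and 0 normalized counts in ZLR 1 to 4, which correspond to 116, 107, 1.21 and 0 estimated reads. In ZFR 1 to 4 it gave 20.03, 29.4, 30.4 and 24.5, or 623, 25, 14.6 and 15.8 reads. The 2 lean libraries with real depth are thus close to each other and well below the fatty libraries, while the 0 in ZLR 4 allows up to 31.3 normalized counts (3 reads, counting error only) and so says little. On the first flow cell the lean values were 4.45 and 4.61 against 20.03 and 29.4, and on the second 12.8 and 0 against 30.4 and 24.5. The log2 fold change was 2.56 (0.86 to 4.27, exact permutation p = 0.0286, limma adjusted p = 0.110). Without the libraries under 0.5 M reads, an alternative chosen after the data were seen that called 5.86% of all genes, it was 2.28 with a limma adjusted p of 0.00241. Over the alternatives in which Adamts2 was tested, single libraries left out included, the limma adjusted p ran from 4.99e-06 to 0.284. Without the libraries under 5 M reads Adamts2 fell under the minimum mean and was not tested. Leaving out ZLR 3 or ZLR 4 alone brought Adamts2 past the threshold (3.10 and 1.84, limma adjusted p = 0.0362 and 0.044), and leaving out any 1 of the other 6 libraries did not, with the highest adjusted p without ZFR 3.

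Pcolce, the enhancer of C-propeptide removal, gave 7.20, 5.01, 10.6 and 0 normalized counts in ZLR (188, 116, 1.01 and 0 reads) and 19.9, 18.4, 27.4 and 15.7 in ZFR (618, 15.7, 13.1 and 10.1 reads). The groups did not overlap over all libraries and so could not overlap within a flow cell. On the second flow cell the lean values rest on 1.01 and 0 reads. The log2 fold change was 2.10 (0.34 to 3.86, exact permutation p = 0.0286, limma adjusted p = 0.207), and 1.58 with an adjusted p of 0.0229 without the libraries under 0.5 M reads. Over all alternatives the adjusted p of Pcolce ran from 2.11e-05 to 0.444, and it passed with no single library left out. Bmp1, the protease that Pcolce assists, was level at 161, 186, 158 and 167 in ZLR against 142, 133, 148 and 185 in ZFR (-0.15, interval -0.45 to 0.15).

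The hydroxylases overlapped between fatty and lean rats. P4ha1 gave 25.1, 31.3, 42.1 and 20.9 in ZLR and 31.99, 21.2, 35.5 and 28.0 in ZFR (log2 fold change -0.01, interval -0.64 to 0.62). P4ha2 gave 47.3, 47.7, 52.6 and 20.9 against 55.1, 61.2, 50.2 and 34.2 (0.30, interval -0.41 to 1.00). Plod1 gave 81.8, 84.8, 84.3 and 41.8 against 107, 81.2, 71.0 and 99.6 (0.33, interval -0.24 to 0.89), and Plod3 48.8, 49.6, 31.6 and 62.7 against 53.1, 61.2, 46.0 and 46.7 (0.13, interval -0.38 to 0.64). The low values of P4ha2 and Plod1 in ZLR 4 rest on 2 and 4 reads. When libraries were weighted by the precision that their reads give, Plod1, Pcolce and Adamts2 all passed, in a fit that called 30.8% of all genes.

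Plod2, under the minimum mean and not tested, gave 0.719, 0.953, 0 and 0 in ZLR against 3.36, 8.26, 6.28 and 0 in ZFR, where ZLR 1 and ZFR 1, the deepest pair, hold 18.8 and 104 estimated reads. The zeros, all but that of ZFR 4 in the lean libraries of lowest depth, allow up to 31.6, 31.3 and 4.67 normalized counts. P3h2 lay between 0 and 10.5 in ZLR and between 1.56 and 8.36 in ZFR. P4ha3 had at most 4 reads in any lean library and 0 in every fatty library, where 3 reads would be 0.0965 to 6.27 normalized counts.

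Against the rat collagen mean, which rests on 4 genes because Col1a2 was not used here, 5 of 7 enzymes fell behind at a limma adjusted p under 0.05, as did 80.4% of all tested genes. They were P4ha1 (-1.66), P4ha2 (-1.35), Plod1 (-1.32), Plod3 (-1.52) and Bmp1 (-1.80). Pcolce (0.45, interval -1.42 to 2.32) and Adamts2 (0.91, interval -0.87 to 2.69) did not differ from it, with wide intervals, although Adamts2 exceeded it without ZLR 3 (1.57, limma adjusted p = 0.0475) and with sample quality weights (0.83, 0.0489). The collagen mean was 1.65 higher in ZFR (exact permutation p = 0.0286), a rise carried mainly by Col1a1 and Col3a1. Col3a1 rose by 1.56 (limma adjusted p = 0.000884), from 172 to 251 in ZLR to 474 to 738 in ZFR. Col1a1 was at 0 in ZLR 3 and ZLR 4, at 8.05 and 5.74 in ZLR 1 and 2, and at 26.6 to 76.2 in ZFR. Its log2 fold change was 4.16 (limma adjusted p = 0.0223), and it kept its call in 4 of 8 fits with 1 library left out. Like Adamts2 and Pcolce, Col1a1 reached the minimum mean only through ZFR (mean 3.45 in ZLR and 53.6 in ZFR). The zeros in ZLR 3 and ZLR 4 allow up to 31.6 and 31.3 normalized counts (3 reads), which reaches into the ZFR range. Its values and test are therefore a description. Col5a1 (group means 29.4 in ZLR and 36.7 in ZFR) and Col5a2 (12.03 and 16.96) did not pass, though both did with precision weights. The enzymes above thus fell behind a mean that rests mainly on Col1a1 and Col3a1.

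**Figure D4:**
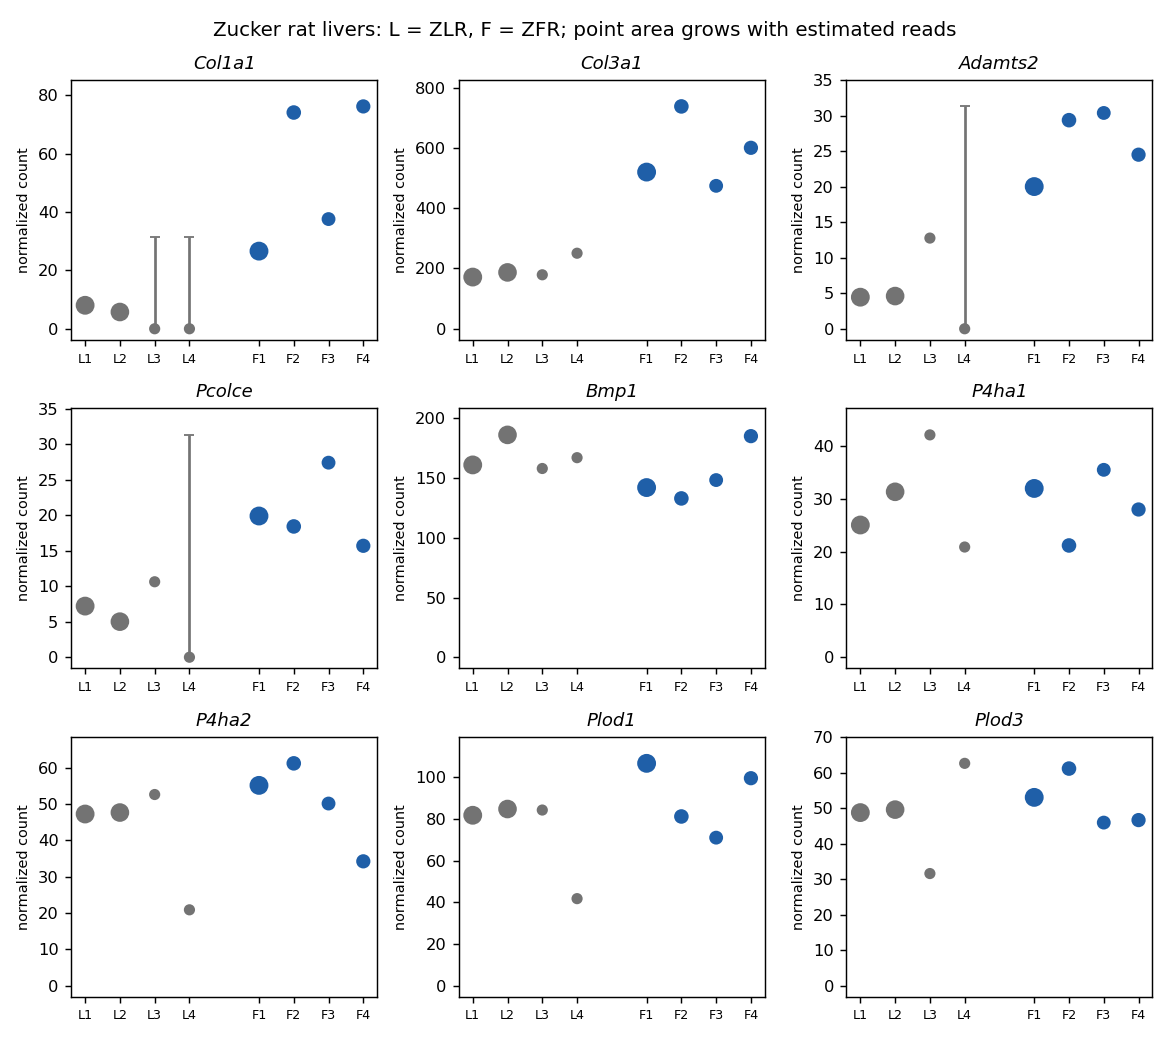
Normalized counts (y axis) in each Zucker rat liver (x axis; L1 to L4, ZLR; F1 to F4, ZFR) for Col1a1, Col3a1 and the 7 tested enzymes, with point area growing with the estimated reads. Lines on points at 0 reach the level of 3 reads in that library. Adamts2 and Pcolce lie between 4.45 and 7.20 in the deep libraries L1 and L2 and at 15.7 or above in every fatty library, whereas Bmp1, P4ha1, P4ha2, Plod1 and Plod3 overlap.

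Of the 6 markers of activated myofibroblasts, 2 were tested in these rats and 1 passed, against 4.25% of all genes. Acta2, smooth muscle actin, rose by 2.24 (limma adjusted p = 0.00768) with 7.85, 6.17, 21.1 and 10.4 in ZLR and 57.2, 58.8, 39.7 and 56.0 in ZFR. Tagln had a log2 fold change of 3.04 and did not pass (limma adjusted p = 0.102), and the summed level of the 6 markers was 23.1 to 52.4 in ZLR and 124 to 161 in ZFR. Of 7 tested stellate cell markers 0 passed, with sums of 314 to 368 and 348 to 467. Of 6 endothelial markers only Stab2 passed, with a rise of 1.16, while 3 of the 6 had estimates above 0 and the list median was 0.06. Of 7 hepatocyte markers Apob, Fgb, Cps1 and Ttr fell while Tf rose. Pdk1 rose (0.91) as the 1 gene of 8 tested in the hypoxia list. The part of these shifts in the enzyme values was not tested. Of 9 tested genes of the wider biosynthesis list 0 passed. Serpinh1 in that list was 0.72 higher (limma adjusted p = 0.175) and, like Adamts2, passed with sample quality weights (0.00588), with precision weights (0.000318), without the libraries under 0.5 M reads (0.0366) and without ZLR 4 (0.046).

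BT2 against vehicle gave 0 genes at a limma adjusted p under 0.05 among 8405 tested (0%), with 332 at an unadjusted p under 0.05 and at most 2 called under any alternative. Of the 6 enzymes tested, 0 passed and 0 had an unadjusted p under 0.05. Plod3 was the 1 enzyme whose groups did not overlap, against 2.96% of all tested genes, with 60.9, 49.7, 60.5 and 62.0 in vehicle and 42.7, 48.1, 45.5 and 38.1 after BT2. Its log2 fold change was -0.41 (-0.82 to 0.00, exact permutation p = 0.0286, limma adjusted p = 0.898). Bmp1 gave 181, 167, 139 and 114 in vehicle and 167, 164, 194 and 223 after BT2 (0.33, interval -0.08 to 0.73, limma adjusted p = 0.898). For P4ha1, P4ha2, Plod1 and Pcolce the log2 fold changes lay between -0.22 and 0.19 and the groups overlapped. Pcolce is an extreme case of shallow counting here, with values from 0 to 25.1 after BT2 that rest on 0 to 13.1 reads. Adamts2 gave 5.91, 6.79, 6.67 and 12.5 in vehicle and 17.3, 4.86, 6.50 and 6.60 after BT2, each on at most 30.3 reads, and was under the minimum mean. The collagen mean differed by 0.42 (exact permutation p = 0.429), and against it 0 of 6 enzymes and 0% of all genes passed. ZFR vehicle 4, with 0.193 M reads, had a mean log2 level of 3.20. The other vehicle livers had 4.55 to 4.78 and the BT2 livers 4.59 to 4.99. Of the 4 collagens in the mean, 2 reached the minimum mean for testing here. These vehicle rats were younger than the ZFR of the other comparison and their table was normalized on its own, so the levels of the 2 sets of fatty rats were not compared.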

How the data were processed

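Liver RNA sequencing of 21 mice and 16 rats was read from 4 tables (WT/Floxed, L-Sirt1 KO, ZFR with ZLR, BT2 with vehicle). Per the study's methods, the authors aligned reads with STAR to mm10 or rn6, quantified transcripts with Salmon and normalized with DESeq2. One floxed saline library was left out by the authors before the comparison. The deposited values are a signal, gene counts divided by a size factor for each library, which also divides out depth. The reads behind a value were estimated from the smallest repeated step in each library. Between 69.3% and 90.3% of values came out whole in the libraries, too few to recover reads, so no count model was run here. Entries with no gene name (381 mouse, 201 rat) or a shared name (130 mouse, 4523 rat) were left out, at most 2.17% of the counts of a table.

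Tests used limma 3.58.1 (lmFit, eBayes with trend) in R 4.3.3 on log2(normalized count + 1) over all genes with a mean of at least 10, with Benjamini-Hochberg adjustment over all of them. On this scale the added count of 1 shrinks the fold changes of low genes. For Col1a1, Adamts2 and Pcolce in ZFR, however, the estimates were larger with the libraries under 0.5 M reads than without them. On the log2 scale these were 4.16 against 2.67, 2.56 against 2.28 and 2.10 against 1.58, so such rat values are not lower limits. Calls required p under 0.05, adjusted p under 0.2, a mean over 50 and a fold over 1.2 in mice, as in the study, and an adjusted p under 0.05 in rats. Intervals are 95%. Single genes were also tested with a two-sided exact permutation test. The genotype test was an interaction term with the table as covariate. The collagen mean is the mean log2 level of Col1a1, Col1a2, Col3a1, Col5a1 and Col5a2. The 10 enzymes and all gene lists were chosen with earlier results of these data known. Named genes are the 10 enzymes, the collagens of the mean, and the genes called in each other list. The functions were tested on simulated data. Alternatives changed the pseudocount, filter, scaling, weights, flow cell, genetic background, collagen mean, replicate block and libraries. Matches to the miR-29 seed were counted over all annotated 3′ untranslated regions of the protein-coding transcripts of each gene (GENCODE M21), each genomic position once. Offsets are given in the longest region that holds the match.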

Additional observations from a re-analysis of the deposited data

Results flagged for a closer look

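Each enzyme's values were screened in each of the 8 groups for a single animal far from the rest (Dixon's test at 95%), which chance alone meets in about 1 of 20 groups, and 7 of 80 enzyme and group pairs were marked. In mice, P4ha1 in WT/Floxed saline replicate 3 was 598 normalized counts against 847 for the next lowest, and P4ha3 in L-Sirt1 KO LNA29 replicate 2 was 4.88 against 1.31 for the next highest. In rats, P4ha2 (20.9) and Plod1 (41.8) were both lowest in ZLR replicate 4, one of the 2 libraries with fewest reads, where these values rest on 2 and 4 reads. Adamts2 was highest in ZFR vehicle replicate 4 (12.5, 1.21 reads) and in ZFR BT2 replicate 1 (17.3, 4.85 reads). Plod3 was lowest in ZFR vehicle replicate 2 (49.7 against 60.5), the deepest library of its table. No enzyme passed the interaction test of the LNA29 response between the 2 mouse genotypes. Some intervals were too wide to exclude a difference, such as -0.84 to 2.32 for Adamts2.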

How the results depend on the processing

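The count of enzymes called stayed at 0 under every alternative run for L-Sirt1 KO mice, BT2 and the interaction, and was 0 to 1 for WT/Floxed mice when single libraries were left out (Pcolce without LNA29 replicate 2). For ZFR against ZLR the count was 0 in the reported fit, 1 with a pseudocount of 10 (Adamts2), 2 with sample quality weights, 3 with precision weights from the estimated reads, 2 without the libraries under 0.5 M reads, and 0 to 1 with single libraries left out, the last 2 weighting and depth choices having been added after the data were seen. Against the collagen mean the count was 5 to 6 of 9 in WT/Floxed mice, 8 to 9 in L-Sirt1 KO mice and 5 to 6 of 7 in ZFR against ZLR over single libraries left out. With sample quality weights it was 7 in WT/Floxed mice and 7 in L-Sirt1 KO mice.

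The count of all genes called moved more: in WT/Floxed mice 688 became 1308 with sample quality weights, 396 with no minimum mean, 88 within wild type mice and 55 with the replicate block. In L-Sirt1 KO mice 297 became 804, 160, 103 with flow cell and 145 with the block. In ZFR against ZLR 367 became 1169 with sample quality weights, 2662 with precision weights, 241 with no minimum mean, 221 with the block and 73 without libraries under 5 M reads (ZFR 1 alone against ZLR 1 and 2, the lone library being assumed to vary like the others), and 7 for the interaction became 0 to 233. TMM scaling moved the median of all genes by at most 0.02 and turned no enzyme. Replicate numbers did not pair the samples (correlations of same-numbered deviations from -0.28 to 0.24), and with the replicate block the enzyme counts did not change, at 0 in all 4 comparisons, while among other genes Col1a1, Col1a2, Col5a1, Serpinh1, Fkbp10 and Adamts14 in WT/Floxed mice and Col1a2, Col5a1 and P3h1 in L-Sirt1 KO mice lost their calls, as did Col1a1 in ZFR. Against the collagen mean, Pcolce in WT/Floxed mice and Plod2 in L-Sirt1 KO mice no longer passed with the block.

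Estimates that changed sign did not pass the test before or after. With sample quality weights these were P4ha1 in WT/Floxed mice (-0.036), Adamts2 minus the collagen mean there (0.38), Adamts14 in L-Sirt1 KO mice (-0.067), P4ha1 in ZFR (0.025), and Plod1 (-0.0092) and Pcolce (0.32) under BT2. Within floxed mice they were P4ha1 (-0.061), Adamts2 (-0.15), P3h2 (0.0058) and P4ha2 minus the collagen mean (0.062), and within wild type mice Adamts2 minus that mean (0.13). With flow cell as covariate Pcolce in L-Sirt1 KO mice was -0.053. With a pseudocount of 10 Pcolce minus the collagen mean was -0.089 in ZFR and Pcolce 0.10 under BT2. In ZFR, P4ha1 was 0.18 without libraries under 5 M reads, 0.30 with precision weights and 0.031 without those under 0.5 M. A collagen mean of Col1a1 and Col3a1 alone gave -0.76 for Pcolce and -0.29 for Adamts2 there. Under BT2, precision weights gave -0.020 for Plod1 and 0.69 for Pcolce, and leaving out libraries under 0.5 M reads gave 0.012 for P4ha2 and 1.19 for Pcolce. With single libraries left out the ranges that crossed 0 were, in WT/Floxed mice, -0.0038 to 0.058 for Bmp1, -0.090 to 0.059 for P4ha1 and -0.40 to 0.13 for P4ha2 minus the collagen mean. In L-Sirt1 KO mice they were -0.31 to 0.030 for P4ha1, -0.078 to 0.19 for Pcolce, -0.59 to 0.13 for Adamts2, -0.067 to 0.23 for Adamts14 and -0.13 to 0.55 for P4ha2. In ZFR they were -0.16 to 0.17 for P4ha1, -0.053 to 0.27 for Plod3, -0.0011 to 0.47 for P4ha2, -0.079 to 0.25 for P3h1 and -0.34 to 0.99 for Pcolce minus the collagen mean, and under BT2 -0.046 to 0.32 for Plod1 and -0.60 to 0.81 for Pcolce. The causes were not tested. The alternative without libraries under 5 M reads was not run for BT2, since no BT2 library remains. In ZLR 3 and ZLR 4, values under 31.3 normalized counts rest on fewer than 3 reads.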
